A study of Mus musculus with 16 samples.

Results

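Interferons are secreted proteins through which cells raise an antiviral and inflammatory state in their neighbours. The 10 genes described here are some of the parts of that system that serve to send or to receive such a signal. They were taken by symbol from the 50600 gene identifiers of the count table: 3 ligands (Ifnk, Ifnb1 and Ifng), 6 receptor chains (Ifnar1, Ifnar2, Ifngr1, Ifngr2, Ifnlr1 and Il10rb) and Irf3, a transcription factor that switches on interferon genes. All 10 had at least 10 counts in total and were tested together with the other genes that reached that minimum, 22155 in all. The libraries were made from footpad epidermal cells of C57/B6J female mice, 4 biological replicates in each of 4 groups. From 5 wk of age the mice ate for 3 wk a purified diet poor in ligands of the aryl hydrocarbon receptor (AhR-poor diet, labelled SYNTH) or that diet supplemented with indole-3-carbinol at 200 ppm (I3C diet), which gives rise to ligands of that receptor. Both diets were combined with a footpad injection of 50 μl of PBS (vehicle) or of 50 μg of papain, a protease allergen, and cells were collected after 6 hr. No transgene or deletion is given for any of them. Mice on a diet shared a cage, so diet and cage cannot be told apart.

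By background knowledge, type I interferons such as interferon-β and the keratinocyte interferon-κ bind the pair Ifnar1 and Ifnar2, interferon-γ binds Ifngr1 and Ifngr2, and the λ interferons bind Ifnlr1 together with Il10rb, a chain that also serves the receptors for IL-10 and IL-22. All of these chains signal through Janus kinases and STAT proteins. In skin, interferon-κ is made by keratinocytes, interferon-γ mainly by T cells and natural killer cells, and interferon-β by many cell types after nucleic acid sensing, through Irf3.

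The libraries held between 22500821 and 51844375 counts. A level is given as CPM, the count relative to the size of its library after TMM scaling. The detection floor of 3 counts equalled between 0.0569 and 0.130 CPM, a limit that covers counting error only. Keratinocyte markers (Krt5, Krt14, Krt1, Krt10 and Lor) summed to between 36770 and 60510 CPM in every library. Markers of other cells were also present and moved with the groups. The 6 fibroblast markers summed to between 9.39 and 13.3 CPM in I3C vehicle, 2.14 and 11.4 CPM in I3C papain, 93.2 and 166 CPM in AhR-poor vehicle, and 246 and 607 CPM in AhR-poor papain libraries. The 7 neutrophil markers lay between 1.64 and 4.74, 50.9 and 92.3, 9.39 and 11.6, and 87.5 and 568 CPM in the same order of groups, and Ly6g, which defines neutrophils, had no count outside the AhR-poor papain libraries. The 6 macrophage markers lay between 17.6 and 26.7, 9.55 and 27.5, 41.5 and 52.8, and 49.0 and 137 CPM. AhR-poor papain replicate T105 was the highest library for all 3 of these lists. The 4 endothelial markers summed to at most 1.84 CPM on the I3C diet and to between 8.72 and 41.1 CPM on the AhR-poor diet. The 5 Langerhans cell markers lay between 313 and 673 CPM on the I3C diet and between 736 and 966 CPM on the AhR-poor diet.

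The upstream sequences of 4 members are printed because they differ in the results that follow: Ifnb1 was counted in 2 libraries, Ifnk differed between diets, and Ifngr1 and Ifnar2 rose with papain on both diets. RefSeq promoter entries (GRCm38.p6, the build of the counts) were found for 9 of the 10 members, and Il10rb had none. Each run is the 250 bases before the annotated start, read 5′ to 3′ on the strand of the gene. Capitals mark matches, on either strand, to AAANNGAAA (paired half-sites of interferon regulatory factors), TTCNNNGAA (the STAT element called GAS), GGNNNTTCC (the core of an NF-κB site) and GCGTG (the core that the AhR binds). Ifnb1 lies at chr4:88522795-88523044 on the minus strand, Ifnk at chr4:35151805-35152054, Ifngr1 at chr10:19591699-19591948 and Ifnar2 at chr16:91372533-91372782, these 3 on the plus strand.
Ifnb1: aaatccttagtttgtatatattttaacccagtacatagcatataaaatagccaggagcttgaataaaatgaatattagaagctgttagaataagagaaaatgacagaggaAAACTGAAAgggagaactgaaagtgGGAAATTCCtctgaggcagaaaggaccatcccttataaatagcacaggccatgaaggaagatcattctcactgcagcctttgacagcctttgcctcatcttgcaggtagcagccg
Ifnk: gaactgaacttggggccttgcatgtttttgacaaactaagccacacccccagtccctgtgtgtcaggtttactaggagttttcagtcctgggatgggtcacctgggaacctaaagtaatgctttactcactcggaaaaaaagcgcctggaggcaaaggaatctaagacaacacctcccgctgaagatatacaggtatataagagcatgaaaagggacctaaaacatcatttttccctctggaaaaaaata
Ifngr1: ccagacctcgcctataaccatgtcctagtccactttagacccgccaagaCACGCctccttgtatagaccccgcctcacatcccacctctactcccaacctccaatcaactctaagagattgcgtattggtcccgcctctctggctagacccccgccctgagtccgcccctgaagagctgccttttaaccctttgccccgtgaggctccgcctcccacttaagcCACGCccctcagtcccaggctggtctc
Ifnar2: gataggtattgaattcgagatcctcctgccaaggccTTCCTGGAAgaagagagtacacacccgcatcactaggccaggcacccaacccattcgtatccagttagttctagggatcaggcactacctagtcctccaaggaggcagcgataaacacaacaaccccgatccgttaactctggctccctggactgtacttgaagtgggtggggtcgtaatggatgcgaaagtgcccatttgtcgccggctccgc

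The Ifnb1 sequence held the AAANNGAAA match (AAACTGAAA) and, nearer to the start, the GGNNNTTCC match (GGAAATTCC), and it was the only 1 of the 9 members with a match to AAANNGAAA. The Ifnk sequence held no match to any of the 4 motifs, Ifngr1 held 2 matches to GCGTG and Ifnar2 held 1 to TTCNNNGAA. Over 32851 promoter entries of the same length, 9.37% held AAANNGAAA, 7.02% TTCNNNGAA, 15.7% GGNNNTTCC and 28.2% GCGTG, and the searches could overlap. These matches describe letters in a window and not binding.

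**Figure D1:**
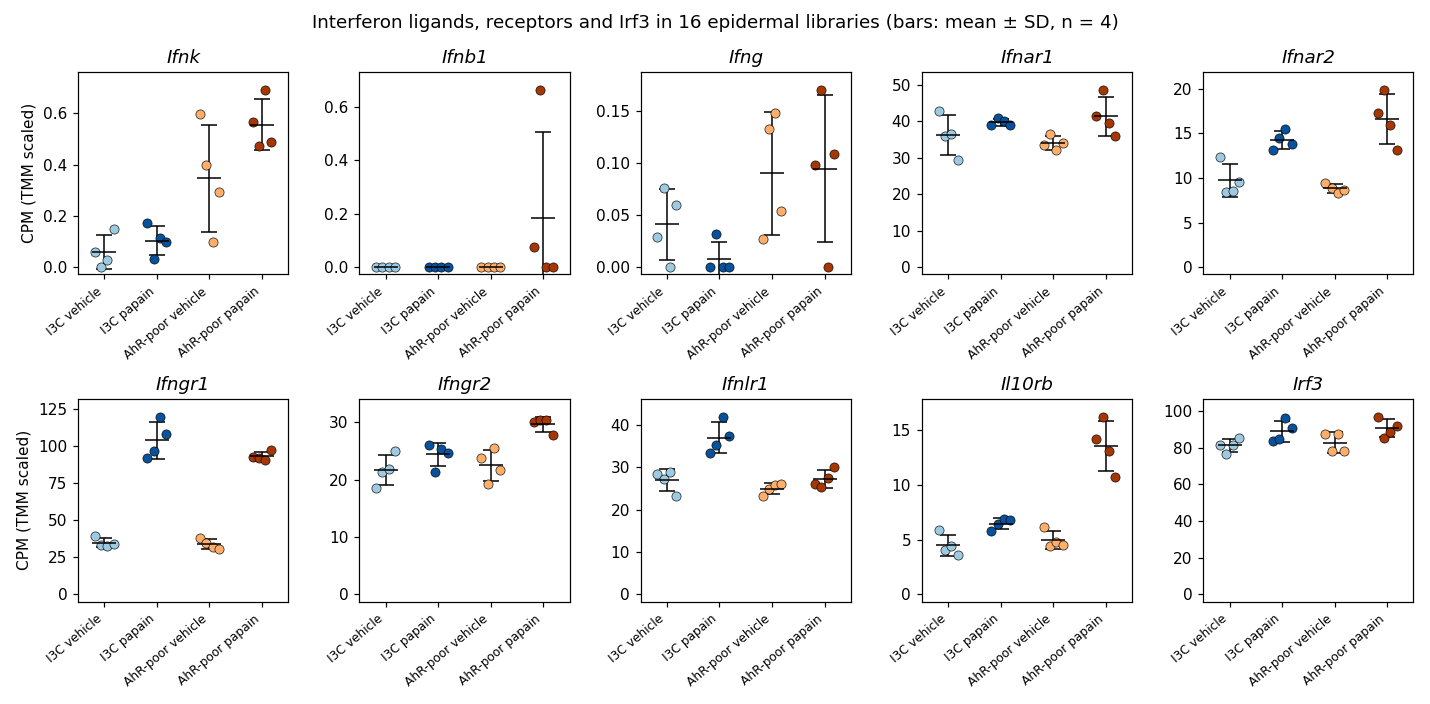
Level of each of the 10 genes in CPM (linear axes, a scale of its own for each gene) in the 16 libraries, with points for libraries and bars for the mean ± SD of 4 (cut off below the axis for Ifnb1). Ifngr1 lay between 90.6 and 120 CPM in the 8 papain libraries and between 31.0 and 39.3 CPM in the 8 vehicle libraries, while Ifnb1 reached 0.664 CPM in a library of the AhR-poor papain group and was at 0 in 14 of the 16.

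Of the ligands, Ifnk, the interferon of keratinocytes, was the best represented, and it differed by diet. Its counts were 22, 15, 4 and 11 in AhR-poor vehicle replicates T100 to T103 and 2, 0, 1 and 5 in I3C vehicle replicates T108 to T111. With papain they were 23, 25, 16 and 18 in AhR-poor replicates T104, T105, T107 and T112 and 7, 1, 4 and 4 in I3C replicates T106, T113, T114 and T115. The AhR-poor papain libraries were thus all above the I3C papain libraries, whereas with vehicle AhR-poor replicate T102 (0.0989 CPM) lay within the I3C range, which ended at 0.150 CPM. Mean levels were 0.556 ± 0.0997 and 0.104 ± 0.0569 CPM with papain and 0.348 ± 0.209 and 0.0587 ± 0.0653 CPM with vehicle (SD, n = 4 each).

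With papain, the AhR-poor libraries had 4.99 times the Ifnk of the I3C libraries (log2 fold change 2.32, SE 0.55, adjusted p = 0.00573, edgeR quasi-likelihood test, exact permutation p = 0.0286, the smallest that 4 against 4 allows). With vehicle the fold was 5.86 (log2 fold change 2.55, SE 0.64, adjusted p = 0.0328, exact permutation p = 0.0571). That adjusted p was past 0.05 but not past the stricter limit of 0.01. Only 1 of the 4 I3C vehicle libraries was above the floor. Their mean of 0.0587 CPM was below the level of 3 counts in those libraries (0.0765 to 0.0900 CPM), so the size of this fold is uncertain. The vehicle call was lost when any of T100, T101, T103, T108, T109 or T110 was left out, with adjusted p up to 0.139, and in a fit of the 8 vehicle libraries alone (adjusted p = 0.0770). The papain call kept an adjusted p below 0.05 but missed the stricter limit without T104, T107, T113, T114 or T115, with adjusted p up to 0.0205. Papain against vehicle gave a log2 fold change of 0.66 (SE 0.48) on the AhR-poor diet and 0.89 (SE 0.75) on the I3C diet, and neither passed (adjusted p = 0.317 and 0.395). The fibroblast and macrophage marker sums given above differed between diets in the same direction as Ifnk. Of 5 keratinocyte markers, 0 passed an adjusted p below 0.05 between diets with either injection. For AhR-poor minus I3C, that cut called 2.98% of the whole tested set upward with vehicle. It called 12.3% upward and 8.36% downward with papain. Against such shares, 0 of 5 cannot decide whether keratinocyte markers differed less than genes at large. The part of fibroblasts, macrophages or other cells in the Ifnk difference was not tested. In such bulk libraries fewer cells of a type and less RNA per cell cannot be told apart.

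Ifnb1, the interferon made after nucleic acid sensing, had counts in 2 libraries. AhR-poor papain replicate T105 had 35 and replicate T104 had 3, while T107, T112 and all 12 libraries of the other groups had 0. Only T105 was above the floor, so the gene was not detected in 15 of 16 libraries and no fold is given. The comparisons of AhR-poor papain with AhR-poor vehicle (adjusted p = 0.120) and with I3C papain (adjusted p = 0.161) did not pass, the exact permutation p was 0.429 in both, and without T105 the gene had too few counts to be tested. T105 and T104 were also the highest libraries for Rsad2 and Ifit1, genes that type I interferon induces. Rsad2, an antiviral enzyme, lay at 86.6 CPM in T105, 47.3 in T104, 21.8 in T107 and 8.73 in T112, and Ifit1, which binds viral RNA, at 47.2, 29.9, 14.6 and 5.63 CPM. T107 and T112 had no count of Ifnb1. Both transcripts were well above the AhR-poor vehicle libraries there (at most 0.509 CPM of Rsad2 and 0.817 CPM of Ifit1). The 3 Ifnb1 counts of T104 equalled 0.0739 CPM, below the floor of the smaller library T107 (0.130 CPM, 22500821 counts). T104 and T107 therefore cannot be told apart for Ifnb1, and its part in the 2 transcripts was not tested. Siglech, a marker of plasmacytoid dendritic cells, had between 4 and 16 counts in the AhR-poor papain libraries and at most 3 in any other, while the sum of the 4 markers of that cell type went the other way, from between 4.90 and 8.64 CPM in AhR-poor vehicle to between 1.70 and 2.73 CPM in AhR-poor papain libraries, mostly through Pacsin1 (4.16 to 0.614 CPM, adjusted p = 0.000218). On the I3C diet that sum was between 5.40 and 11.8 CPM with vehicle and between 1.97 and 2.46 CPM with papain.

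Ifng, the type II ligand, was near the floor throughout. Its counts were 4, 9, 0 and 4 in AhR-poor papain replicates T104, T105, T107 and T112, and 1, 5, 6 and 2 in AhR-poor vehicle replicates T100 to T103. In I3C papain libraries they were 0, 1, 0 and 0, and in I3C vehicle libraries 1, 3, 0 and 2, so that no I3C library was above the floor. AhR-poor papain exceeded I3C papain by at least 1.15-fold against the mean floor of 3 counts per library (adjusted p = 0.0299), the groups overlapped through T107, and the exact permutation p was 0.143. The call was lost without any of T104, T105, T106, T114 or T115, with adjusted p up to 0.0994. Papain against vehicle on the AhR-poor diet did not pass (log2 fold change 0.19, SE 0.71, adjusted p = 0.876). The 7 markers of T cells and natural killer cells, the usual sources of Ifng, summed to between 20.5 and 58.3 CPM in AhR-poor papain and between 9.13 and 29.5 CPM in I3C papain libraries, and Ncr1, which defines natural killer cells, had at most 9 counts in any library. Their part in the Ifng difference was not tested. The 336 exonic bases that Ifng shares with the gene model Gm49751 on the same strand leave its count uncertain. A further 18 interferon genes were looked up (the α family, Ifnab, Ifne, Ifnz and the λ interferons among them), of which 13 had no count in any library and none rose above the floor, the highest count being 3.

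The receptor chains were all detected in all 16 libraries. Per length, in CPM per kilobase of exon, Irf3 was the highest member in the 8 vehicle libraries (23.8 ± 1.26, SD), followed by Ifngr1 (12.1 ± 1.04). Ifnlr1 (6.21 ± 0.512), Ifnar1 (5.92 ± 0.668) and Ifngr2 (5.86 ± 0.664) came next, with ranges that overlapped among the 3 and did not reach Ifngr1. Ifnar2 (2.79 ± 0.397) and Il10rb (1.24 ± 0.228) were the lowest chains, each with a range below that of its neighbour above. In the 8 papain libraries Ifngr1 (34.7 ± 3.59 CPM per kilobase) lay above Irf3 (26.1 ± 1.48) without overlap, while Ifnar2 (4.63 ± 0.696) came within the range of Ifngr2 and Il10rb (2.62 ± 1.07) within that of Ifnar2. The partner chains of each receptor were thus unequal, with Ifngr1 above Ifngr2, Ifnar1 above Ifnar2 and Ifnlr1 above Il10rb. With the length of the longest transcript in place of the exons of all transcripts, Ifnar1 lay above Ifnlr1 (8.99 against 6.21 CPM per kilobase with vehicle), and Ifngr1 and Irf3 came close with papain (46.7 and 44.2 CPM per kilobase over 8 libraries), with Irf3 the higher in the AhR-poor papain group (44.6 against 44.2).

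With papain, 5 of the 10 members rose on the AhR-poor diet and 4 on the I3C diet at an adjusted p below 0.05, and 0 fell. Of all genes tested, 17.7% were higher with papain by that rule on the AhR-poor diet and 16.9% on the I3C diet, and 15.7% and 18.4% were lower. With the stricter rule (log2 fold change above 1 with an adjusted p below 0.01), 2 members were higher on the AhR-poor diet (Ifngr1 and Il10rb) against 6.04% of all genes, and 1 on the I3C diet (Ifngr1) against 3.69%. The median log2 fold change of the 10 members was 0.53 on the AhR-poor diet and 0.31 on the I3C diet, beside -0.0044 and -0.036 over all genes. Both medians include Ifnb1 and Ifng. On the I3C diet these genes were at the floor with vehicle and with papain, Ifng at a log2 fold change of -2.14. The I3C median is therefore uncertain, and the medians are not a measure of a difference between the diets. The responses rest on separate libraries, but each shares its libraries with the diet comparisons.

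Ifngr1, the chain that binds interferon-γ, rose with papain on both diets. It lay at 38.3, 34.7, 31.8 and 31.0 CPM in AhR-poor vehicle replicates T100 to T103 and at 92.9, 92.4, 90.6 and 97.3 CPM in AhR-poor papain replicates T104, T105, T107 and T112. On the I3C diet it lay at 39.3, 33.6, 32.6 and 34.3 CPM in vehicle replicates T108 to T111 and at 91.8, 96.6, 120 and 108.2 CPM in papain replicates T106, T113, T114 and T115. No papain library came near a vehicle library, and T105, which stood apart for Ifnb1, did not stand apart here. The fold was 2.75 on the AhR-poor diet (log2 fold change 1.46, SE 0.09, adjusted p = 3.03e-09) and 2.98 on the I3C diet (log2 fold change 1.58, SE 0.09, adjusted p = 6.66e-10). The difference between the responses was -0.12 on the log2 scale (SE 0.12, adjusted p = 0.728). Beside it, the fibroblast sums of the I3C papain libraries were within or below the I3C vehicle range. The neutrophil sums rose with papain on both diets. On the I3C diet 4 of the 7 markers passed an adjusted p below 0.05, against 16.9% of all genes higher. These were Cxcr2 (0.705 to 24.2 CPM), S100a8 (0.189 to 16.6 CPM), S100a9 (0.330 to 16.9 CPM) and Mmp9 (1.64 to 10.1 CPM). On that diet Csf3r (0.739 CPM with papain, adjusted p = 0.0660) and Retnlg (0.0891 CPM, adjusted p = 0.233) did not pass, and Ly6g had no count. The part of these cells in the Ifngr1 rise was not tested.

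Ifngr2, the partner chain that brings in Jak2, changed far less. AhR-poor papain libraries lay between 27.7 and 30.4 CPM and AhR-poor vehicle libraries between 19.2 and 25.4 CPM, with no overlap (log2 fold change 0.40, SE 0.10, adjusted p = 0.00425). On the I3C diet the ranges were 21.4 to 26.0 CPM with papain and 18.5 to 24.9 CPM with vehicle, which overlapped, and the difference did not pass (log2 fold change 0.17, SE 0.10, adjusted p = 0.202). The papain responses themselves differed by 0.23 (SE 0.14), which did not pass either (adjusted p = 0.505).

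Ifnar2, the chain that holds type I interferon most tightly, rose on both diets. It lay at 9.45, 8.87, 8.33 and 8.72 CPM in AhR-poor vehicle replicates T100 to T103 and at 17.3, 19.9, 15.97 and 13.2 CPM in AhR-poor papain replicates T104, T105, T107 and T112. In I3C vehicle replicates T108 to T111 it lay at 12.4, 8.46, 8.57 and 9.51 CPM and in I3C papain replicates T106, T113, T114 and T115 at 13.2, 14.5, 15.5 and 13.9 CPM. Every papain library was above every vehicle library of its diet, with T108 the closest. The fold was 1.88 on the AhR-poor diet (log2 fold change 0.91, SE 0.13, adjusted p = 2.86e-05) and 1.46 on the I3C diet (log2 fold change 0.55, SE 0.13, adjusted p = 0.00255). Without T112 the AhR-poor response reached a log2 fold change of 1.01 and passed the stricter rule.

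Ifnar1, the other chain of the type I receptor, lay between 35.8 and 48.7 CPM in AhR-poor papain and between 32.1 and 36.6 CPM in AhR-poor vehicle libraries, where T112 fell within the vehicle range. The rise of 1.21-fold passed an adjusted p below 0.05 (log2 fold change 0.28, SE 0.10, adjusted p = 0.0396), but not without T100, T102, T104 or T105, and without T105 it was 0.19 (adjusted p = 0.158). On the I3C diet it did not pass (log2 fold change 0.14, SE 0.10, adjusted p = 0.325).

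**Figure D2:**
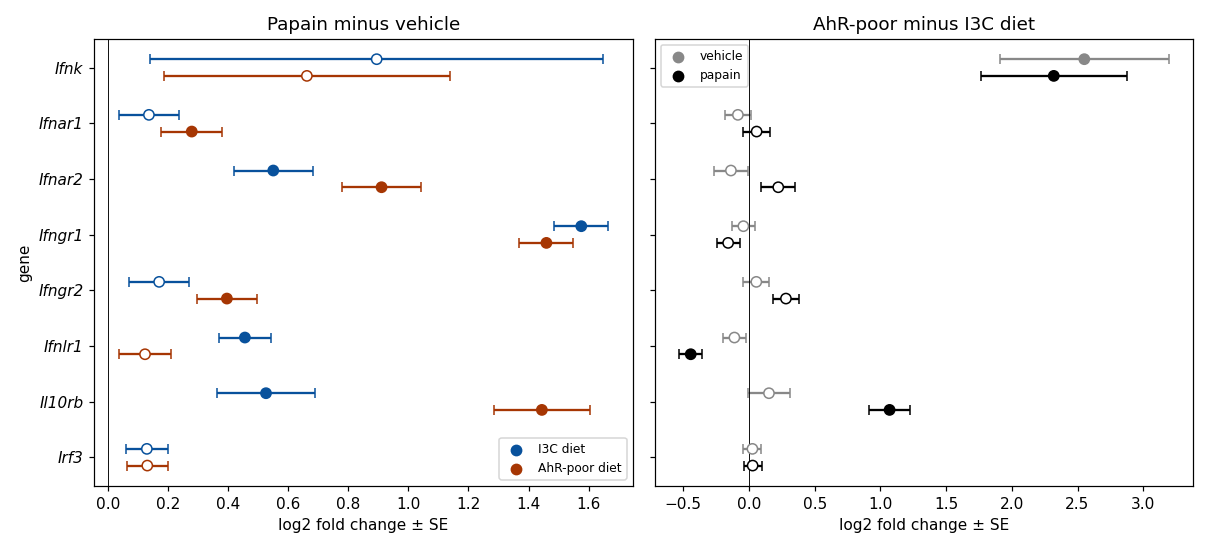
Log2 fold change with its SE (horizontal axes) of 8 of the genes for papain minus vehicle on each diet (left) and for the AhR-poor minus the I3C diet with each injection (right), with filled points for an adjusted p below 0.05. Ifngr1 lies at 1.46 and 1.58 in the papain responses of the AhR-poor and I3C diets, Il10rb at 1.44 and 0.53, and Ifnb1 and Ifng are left out because groups were at the floor.

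Both chains of the λ receptor changed, each in its own way. Il10rb, which is shared with the IL-10 and IL-22 receptors, lay at 6.18, 4.42, 4.77 and 4.51 CPM in AhR-poor vehicle replicates T100 to T103 and at 14.1, 16.2, 13.1 and 10.7 CPM in AhR-poor papain replicates T104, T105, T107 and T112. On the I3C diet it lay at 5.83, 4.08, 4.38 and 3.602 CPM in vehicle replicates T108 to T111 and at 5.77, 6.41, 6.85 and 6.74 CPM in papain replicates T106, T113, T114 and T115. The AhR-poor papain libraries were the 4 highest of the 16, and on the I3C diet T106 lay just below T108. The papain response was 2.72-fold on the AhR-poor diet (log2 fold change 1.44, SE 0.16, adjusted p = 1.90e-06) and 1.44-fold on the I3C diet (log2 fold change 0.53, SE 0.16, adjusted p = 0.0153). The difference between the responses was 0.92 (SE 0.23) and did not pass over all genes (adjusted p = 0.0852), though it did with DESeq2 (adjusted p = 0.00499) and without T100 or T112.

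With papain, the AhR-poor libraries had 2.10 times the Il10rb of the I3C libraries (log2 fold change 1.07, SE 0.16, adjusted p = 8.33e-05), and the groups did not overlap. Without T105 the log2 fold change was 0.95, under the limit of 1, with the adjusted p still below 0.05. Within the AhR-poor papain group, T105 was the highest and T112 the lowest library for Il10rb and for the fibroblast, macrophage and neutrophil sums, while T104 was above T107 for Il10rb and below it for all 3 sums. The endothelial sum was lowest in T107 (15.9 CPM). Il10ra, the IL-10 receptor chain of leukocytes, lay between 6.42 and 28.9 CPM in AhR-poor papain and between 2.50 and 3.13 CPM in I3C papain libraries, with T105 the highest and T112 the lowest again. With vehicle, Il10rb did not differ past the test between diets (log2 fold change 0.15, SE 0.16, adjusted p = 0.801). The fibroblast sums with vehicle were 93.2 to 166 CPM on the AhR-poor and 9.39 to 13.3 CPM on the I3C diet. With papain they were 246 to 607 CPM and 2.14 to 11.4 CPM. The part of these other cells in the Il10rb difference was not tested.

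**Figure D3:**
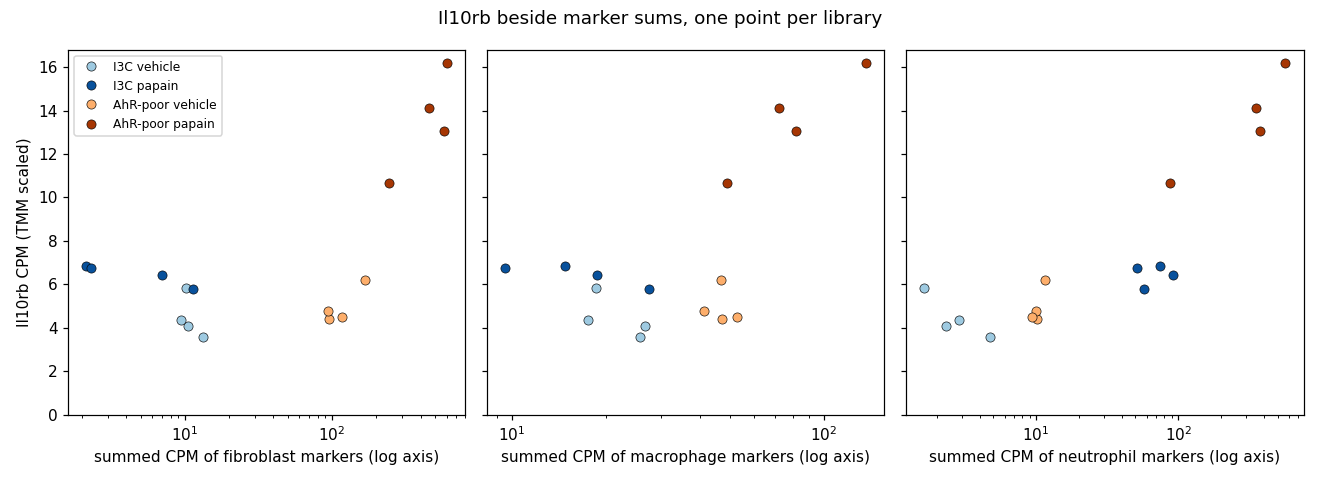
Il10rb in CPM (vertical axis, linear) against the summed CPM of fibroblast, macrophage and neutrophil markers (horizontal axes, logarithmic), with a point for each of the 16 libraries coloured by group. AhR-poor papain libraries take the highest Il10rb values, from 10.7 to 16.2 CPM, at fibroblast sums from 246 to 607 CPM. Within that group T105 is highest and T112 lowest on every axis. AhR-poor vehicle libraries reach 6.18 CPM of Il10rb at fibroblast sums up to 166 CPM.

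Ifnlr1, the chain that is specific to the λ interferons, rose with papain on the I3C diet. It lay at 28.4, 27.4, 28.8 and 23.2 CPM in I3C vehicle replicates T108 to T111 and at 33.4, 35.2, 41.9 and 37.5 CPM in I3C papain replicates T106, T113, T114 and T115. In AhR-poor vehicle replicates T100 to T103 it lay at 23.3, 24.9, 25.7 and 26.0 CPM and in AhR-poor papain replicates T104, T105, T107 and T112 at 26.1, 25.3, 27.6 and 30.0 CPM. The I3C papain libraries were the 4 highest of all 16. The papain response was 1.37-fold on the I3C diet (log2 fold change 0.46, SE 0.09, adjusted p = 0.000395) and 1.09-fold on the AhR-poor diet, where it did not pass (log2 fold change 0.12, SE 0.09, adjusted p = 0.310). The responses differed by -0.33 (SE 0.12), which did not pass over all genes (adjusted p = 0.267). Ifnlr1 was also the only member called lower on the AhR-poor diet, by -0.44 with papain (SE 0.09, adjusted p = 0.00128).

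Irf3, the factor that carries the signal from nucleic acid sensors to the Ifnb1 promoter, lay between 76.8 and 96.7 CPM in all 16 libraries. Papain against vehicle gave a log2 fold change of 0.13 (SE 0.07) on each diet, and neither passed (adjusted p = 0.157 and 0.159). Irf3 shares 88 exonic bases with Bcl2l12 on the opposite strand. The strand setting of the counting is not given in the sources used here.

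Between diets, more members passed with papain than with vehicle. With vehicle, only Ifnk passed an adjusted p below 0.05, against 2.98% of all genes called higher on the AhR-poor diet. By the stricter rule 0 of 10 passed with edgeR (1 at an unadjusted p below 0.05), against 1.59% of all genes called higher with edgeR. With DESeq2 1 passed that rule, and no share of all genes was computed for DESeq2. With papain, 3 members were higher on the AhR-poor diet (Ifnk, Ifng and Il10rb), against 12.3% of all genes, and Ifnlr1 was lower, against 8.36%. By the stricter rule the count was 2 (Ifnk and Il10rb), against 7.15%. Ifngr2 came near, at 27.7 to 30.4 CPM on the AhR-poor and 21.4 to 26.0 CPM on the I3C diet without overlap (log2 fold change 0.28, SE 0.10, adjusted p = 0.0508), and it passed under 9 of 22 alternatives. For the interaction of diet and papain, 0 of 10 members passed an adjusted p below 0.05 with edgeR, beside 0.329% of all genes with edgeR. In that fit 2 had an unadjusted p below 0.05 (Il10rb and Ifnlr1). With DESeq2 1 member passed, again without a share of all genes.

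The receptor genes Ifnar2, Il10rb, Ifnar1 and Ifngr2 lie in that order within 192.8 kb of chromosome 16, on the plus strand (GRCm38 chr16:91372783-91565623). Ifnar2 ends 574 bases before Il10rb begins. The coding gene model Gm21970 shares 315 exonic bases with Ifnar2 and 569 with Il10rb on the same strand and had no count in any library, so reads on those bases went to the members or were dropped, and the levels of both are uncertain for that reason. The papain responses on the AhR-poor diet along the cluster were 0.91, 1.44, 0.28 and 0.40 on the log2 scale, and on the I3C diet 0.55, 0.53, 0.14 and 0.17. The remaining members lie on chromosomes 4 (Ifnk, Ifnb1 and Ifnlr1), 10 (Ifng and Ifngr1) and 7 (Irf3).

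Over the 16 libraries, the genes whose log2 CPM was most like that of each member were named from 13026 genes with at least 1 CPM on average. Ifngr1 went most closely with Serpinb1a, Syt12 and Slc25a48 (Pearson r of 0.997, 0.995 and 0.994), and Ifnar2 with Litaf, Smox and Pfkfb4 (0.976, 0.967 and 0.965). Il10rb went with Ptx3, Acvrl1 and Hmox1 (0.974, 0.973 and 0.957), and Ifnlr1 with Csnk1a1, Yes1 and Auts2 (0.954, 0.953 and 0.951). For Ifnar1 the genes were Tinf2, Tram2 and Smchd1 (0.920, 0.904 and 0.895), for Ifngr2 Chmp4b, Stk11 and Il18 (0.909, 0.908 and 0.902) and for Irf3 Bloc1s4, Cript and Sart1 (0.914, 0.901 and 0.887). Among the members, Ifnar2 went with Ifngr1 (0.898) and Il10rb (0.869), and Ifnlr1 with neither Ifngr2 (0.0016) nor Il10rb (0.0777). These values describe 16 libraries that share their groups and marker content.

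Downstream of the receptors, most of the signal transducers rose with papain. Of 5 kinases and factors, 3 rose on the AhR-poor diet and 4 on the I3C diet at an adjusted p below 0.05. None fell on either diet (median log2 fold change 0.49 and 0.57). Of all genes, 17.7% rose and 15.7% fell by that rule on the AhR-poor diet, and 16.9% and 18.4% on the I3C diet. Stat2, a factor of the type I and λ pathways, rose 2.50-fold on the AhR-poor and 3.12-fold on the I3C diet. Irf9, which binds DNA in those pathways, rose 2.06-fold on the I3C diet by the stricter rule and 1.93-fold on the AhR-poor diet. Jak1, which binds Ifnar2, Ifngr1 and Ifnlr1, rose on the I3C diet (log2 fold change 0.57, SE 0.11, adjusted p = 0.000501) and with papain was lower on the AhR-poor diet (log2 fold change -0.51, SE 0.11, adjusted p = 0.00279). Tyk2, the kinase of Ifnar1 and Il10rb, passed on neither diet.

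Of 15 genes that lead to interferon production, 8 rose and 3 fell on the AhR-poor diet, and 6 rose and 2 fell on the I3C diet (median log2 fold change 0.49 and 0.26), to be read against the shares of all genes given above. Tmem173, the adaptor STING of cytosolic DNA sensing, rose 11.5-fold on the AhR-poor and 13.2-fold on the I3C diet, and the RNA sensor Ifih1 2.25-fold and 2.27-fold. The DNA sensor Mb21d1 rose 2.16-fold on the I3C and 1.89-fold on the AhR-poor diet. Irf7, which amplifies type I interferon, rose 4.75-fold on the AhR-poor diet, while on the I3C diet it did not pass (18.6 against 14.9 CPM, adjusted p = 0.641). Tlr7, an RNA sensor of leukocytes, rose 6.02-fold on the AhR-poor diet and with papain was at least 15.8 times higher there than the floor of the I3C libraries, beside the leukocyte markers above. Irf1, an early interferon-γ target that also drives interferon genes, fell 3.73-fold on the I3C diet (254.7 to 68.3 CPM, adjusted p = 0.000508), and on the AhR-poor diet it did not pass (183.5 to 100.4 CPM, adjusted p = 0.0563).

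Among 7 inhibitors of interferon signalling, Usp18, which blocks Ifnar2, rose 8.71-fold on the AhR-poor and 4.90-fold on the I3C diet. In all, 2 of the 7 rose and 0 fell on the AhR-poor diet, and 2 rose and 4 fell on the I3C diet, where Socs1 (log2 fold change -0.72, SE 0.17, adjusted p = 0.00288) and Socs3 (log2 fold change -0.89, SE 0.21, adjusted p = 0.00328), which restrain Janus kinases, were among those that fell. The median was 0.12 on the AhR-poor and -0.27 on the I3C diet. The rule for this list and the next was an adjusted p below 0.05. By it 17.7% of all genes rose and 15.7% fell on the AhR-poor diet, and 16.9% and 18.4% on the I3C diet. Of the 8 other genes of the class II cytokine receptor family and its ligands, 4 rose and 1 fell on the AhR-poor diet, and 1 rose and 1 fell on the I3C diet (median 0.48 and 0.58, or 0.51 with Il22 at its bound on the I3C diet). Il10 rose 16.8-fold on the AhR-poor diet (adjusted p = 0.000191), where Il10ra rose 5.40-fold, while on the I3C diet neither passed (adjusted p = 0.527 and 0.190), and with papain both were higher on the AhR-poor diet (7.07-fold and 5.65-fold). Il20rb, a receptor chain of keratinocytes, fell 2.07-fold on the AhR-poor and 1.98-fold on the I3C diet.

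Many genes that interferons induce rose with papain on both diets. On the AhR-poor diet 8 of 8 type I response genes and 4 of 7 type II response genes rose (median log2 fold change 5.22 and 0.89), and on the I3C diet 7 of 8 and 4 of 7 rose, with 1 type II gene falling (median 3.42 and 1.076). By the same rule 17.7% of all genes rose on the AhR-poor diet and 16.9% on the I3C diet, where 18.4% fell. The type I median on the I3C diet was 3.03 with the 3 genes whose I3C vehicle libraries were at the floor (Ifit3, Ifi44 and Rtp4) set to their bounds. Rtp4 rose 50.01-fold and Ifi44 21.7-fold on the AhR-poor diet, and at least 10.1-fold and 11.6-fold against the floor on the I3C diet, where no library had a count of Ifnb1. Of the type II genes, Gbp2, a guanylate-binding protein, rose 14.0-fold and 6.31-fold, Iigp1 9.50-fold and 9.14-fold, and Igtp 5.25-fold and 3.04-fold, on the AhR-poor and the I3C diet. Cxcl9, a chemokine tightly tied to interferon-γ, passed on neither diet and averaged at most 0.403 CPM in a group. Cxcl10 rose on the AhR-poor diet only (adjusted p = 0.0203, against 0.853 on the I3C diet). Ciita rose on the I3C diet only (adjusted p = 0.00966, against 0.867 on the AhR-poor diet). Socs1 passed only as a fall on the I3C diet. Whether an interferon induced the genes of either list here, and which one, was not tested.

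**Figure D4:**
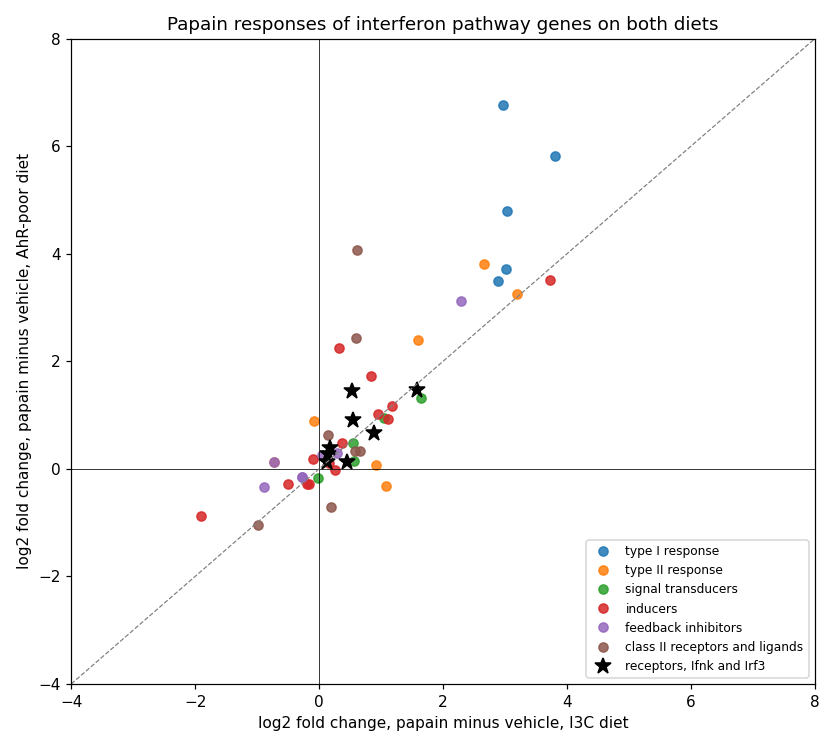
Log2 fold change with papain on the I3C diet (horizontal axis) against the AhR-poor diet (vertical axis) for genes of 6 interferon pathway lists (coloured points) and 8 of the genes described here (stars), with the dashed line at equal change and genes left out where all libraries of a group were at the floor (Ifit3, Ifi44, Rtp4, Il22 and Tlr7). Rsad2 lies at 2.97 and 6.77, Stat2 at 1.64 and 1.32, Ifngr1 at 1.58 and 1.46, and Il10rb at 0.53 and 1.44.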

How the data were processed

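Reads from footpad epidermal cells were aligned with STAR to mm10, per the labels, which also name FastQC and DESeq2, and the authors deposited raw counts of reads per gene for the 16 libraries, without normalization. The counting tool, annotation release and strand setting are not given in the sources used here. Positions, exon lengths and shared bases came from GENCODE M21 (GRCm38). Diet and injection were taken from the labels.

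TMM factors from edgeR 4.0.16 (R 4.3.3) scaled the 22155 genes that had 10 or more counts in total, a mean was fitted per group, and the robust quasi-likelihood F test gave each comparison, with Benjamini-Hochberg adjusted p-values over all genes. The stricter call was an adjusted p below 0.01 with an absolute log2 fold change above 1, and the other an adjusted p below 0.05. Folds against groups with at most 3 counts per library are bounds. Two-sided exact permutation tests used log2 CPM (prior count 0.5). The members and gene lists were chosen with earlier results of these data known. Every member is named, and from each list up to 4 genes with the largest papain response among those past the stricter rule. Further genes were chosen after their values were seen (Jak1, Tyk2, Socs1, Socs3, Cxcl9, Cxcl10, Ciita, Siglech, Pacsin1, Ncr1, Ly6g, Csf3r and Retnlg). Cxcr2, S100a8, S100a9 and Mmp9 were named as the rest of the neutrophil marker list. Alternatives were RLE factors, library size alone, filterByExpr, no minimum count, DESeq2 1.42.0, only the 8 libraries compared, and each library left out. The fit was tested on simulated data. Replicates differed by more than counting noise, and the study calls them biological replicates. The sequencing unit of each library is not in the labels. A gene of the signal transducer list is not reported here.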

Additional observations from a re-analysis of the deposited data

Results flagged for a closer look

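Among 35 groups of 4 libraries with a count above the floor, 2 held a library far from the other 3 by Dixon's critical value, and chance alone gives about 1 in 20 such groups. Ifnb1 in AhR-poor papain replicate T105 was at 0.664 CPM, while the other 3 libraries of the group had at most 3 counts, and T105 was also the library with the highest fibroblast, macrophage and neutrophil marker sums. Ifngr2 in AhR-poor papain replicate T112 was at 27.7 CPM, with the others between 30.1 and 30.4 CPM, and T112 had the lowest of those marker sums in its group.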

How the results depend on the processing

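Of 995 recomputed log2 fold changes of members, 934 kept their direction and their call, 22 lost a level of call, 14 gained one and 25 changed sign, none of these with a call in either fit. The count of members past the stricter rule was 2 for papain on the AhR-poor diet, 1 for papain on the I3C diet, 0 for diet with vehicle and 2 for diet with papain. At an adjusted p below 0.05 with any fold change it was 5, 4, 1 and 4, and with DESeq2 it was 1 for diet with vehicle (Ifnk). Leaving out a library gave 2 to 3 for papain on the AhR-poor diet and 1 to 2 for diet with papain, where Ifnk was lost without T104, T107, T113, T114 or T115 and Il10rb without T105. All 7 members detected above 3 counts in every library also exceeded 10. With the longest transcript as the length, the mean level per length over 16 libraries moved from 6.37 to 9.69 for Ifnar1 and from 24.9 to 42.3 CPM per kilobase for Irf3. The cause of these changes was not tested.

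Sign changes among uncalled values, as the range when a library was left out, ran from -0.25 to 0.53 for Ifng with papain on the AhR-poor diet. Between diets with vehicle they ran from -0.013 to 0.051 (Irf3), -0.11 to 0.018 (Ifngr1, which was 0.0072 with library size only), -0.17 to 0.0069 (Ifnar1) and -0.021 to 0.13 (Ifngr2). Between diets with papain they ran from -0.021 to 0.073 (Irf3) and -0.047 to 0.12 (Ifnar1), and for the interaction from -1.19 to 0.22 (Ifnk) and -0.037 to 0.055 (Irf3, which was -0.0047 with every gene of at least 1 count). The ligands are limited by depth, since 3 counts equal up to 0.130 CPM. No paired analysis was possible because no replicate code occurs in more than 1 group.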
